A study of Mus musculus with 2 samples.

Results

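The liver genes that build glycogen and take it apart were examined in Bglu3 congenic mice and in their controls. The group held 9 genes, Gys2, Gbe1, Pygl, Ugp2, Ppp1r3b, Ppp1r3c, Gyg, Phka2 and Gsk3b, and its members were all probe sets whose single gene symbol in the platform annotation was one of these names. That gave 22 probe sets for the 9 genes, of 34945 probe sets and 18193 genes with a single symbol on the array. Liver RNA of each group was hybridised to 1 Affymetrix array, 1 from Bglu3 congenic mice and another from the controls, C57BL/6 apoE-/- mice, in which the gene for apolipoprotein E is disrupted. Per the labels, both groups received chow from weaning at 3 weeks, then a Western diet from 6 weeks of age for 12 weeks, and both are described as hyperglycemic with C57BL/6 given as the strain. Bglu3 names a blood glucose locus of chromosome 1. In congenic mice, a stretch of chromosome from a donor strain has been bred into a recipient strain. The labels do not give the donor strain, the ends of the stretch, the apoE genotype of the congenic mice, the sex or number of mice behind an array, or the hour and feeding state at which liver was taken. With 1 array per group there was no spread between animals and no test, so every difference below describes 2 arrays.

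Glycogen is the branched store of glucose from which the liver supplies blood between meals. Glucose-6-phosphate is turned into UDP-glucose, a chain is primed on glycogenin, glycogen synthase lengthens it and the branching enzyme adds branches, while glycogen phosphorylase removes glucose units again. Hormones act on the balance mainly through phosphorylation: phosphorylase kinase switches phosphorylase on, glycogen synthase kinase 3 holds the synthase back, and targeting subunits bring protein phosphatase 1 to the glycogen particle, where it reverses both. These switches act on proteins, and the arrays measured RNA only. RNA from whole liver also comes from several cell types, so fewer cells of a type and less RNA per cell cannot be told apart.

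By its brightest probe set, none of the 9 genes differed by 1.5-fold between the arrays. The most distant of these values were those of both targeting subunits, Ppp1r3b and the brightest probe set of Ppp1r3c, which were lower in the congenic array by 26.0% and 27.9%, and of Gyg, which was higher by 24.8%. A second, dimmer probe set of Ppp1r3c was higher by 25.4%. The synthase gene Gys2 and the brightest probe set of Ugp2 differed from the control by 2.42% and 1.49%. Each difference is the congenic minus the control value of log2(intensity + 5), percentages are on the same scale, and intensities are the deposited linear values in arbitrary units. A probe set counted as expressed when it reached the array median on 1 or both arrays, as 19 of the 22 did, and a gene was represented by its brightest probe set.

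By the brightest probe set, 0 of 9 member genes passed 1.5-fold, where 12.9% of 12613 expressed genes did and, among the 7251 with a mean intensity of 100 or more, 7.19%. By probe set, 0 of 19 expressed ones passed it, against 13.3% of all 20973 expressed probe sets with a single symbol. With so few genes, a share of 0 is near this background and is not a result about the members. The median difference of the 9 genes was -0.01, with 4 higher and 5 lower in the congenic array (3 to 5 higher across the scalings), beside 0.04 over all expressed genes. Their median absolute difference was 0.14, against 0.16 among the expressed genes with a mean intensity of 100 or more and 0.21 among all expressed genes.

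**Figure D1:**
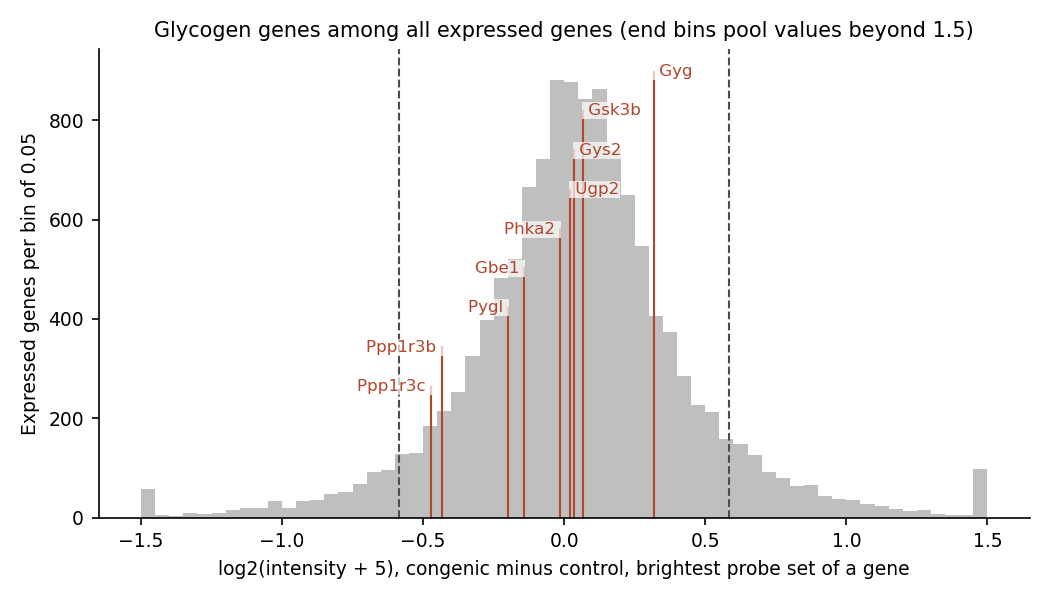
Distribution of the difference between the arrays (x axis, log2 of intensity + 5, congenic minus control) over 12613 expressed genes (y axis, genes per bin of 0.05), with dashed lines at 1.5-fold and a red line for each glycogen gene, whose height has no meaning. All 9 lines fall between the dashed lines, from -0.47 for Ppp1r3c to 0.32 for Gyg.

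The priming and precursor steps came first in the path. Gyg encodes glycogenin, the protein on which a new chain starts, and its probe set 1459522_s_at read 235 (congenic) against 187 (control), a log2 difference of 0.32. Its other probe set, 1448429_at, read 175 against 154 (log2 difference 0.18). Both probe sets of Gyg were therefore higher in the congenic array, although the suffix of the first marks probes that may bind more than 1 transcript.

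Ugp2 encodes UDP-glucose pyrophosphorylase, which makes the activated glucose that the synthase uses, and it had 5 probe sets, all expressed. The brightest, 1434486_x_at, read 3376 (congenic) against 3326 (control; log2 difference 0.02). Probe set 1451742_a_at read 3282 against 3309.9 (-0.01) and 1434485_a_at 2854 against 2894 (-0.02). The arrays were nearly level in these 3, by less than 1.5% each. Probe set 1426461_at read 902 against 838 (0.11) and 1426460_a_at 517 against 527 (-0.03). Over its 5 probe sets Ugp2 thus spanned only 0.13 on the log2 scale, with 2 of them higher and 3 lower.

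Gys2 and Gbe1 carry out chain growth. Gys2 is the liver form of glycogen synthase, the enzyme that lengthens the chain, and its only probe set, 1424815_at, read 749 (congenic) against 732 (control; log2 difference 0.03). Of all expressed genes, 90.4% differed by at least this much. Gbe1 is the branching enzyme, and its only probe set, 1420654_a_at, read 579.9 against 640.04 (-0.14). The sign of the Gys2 difference turned after quantile normalization, at -0.0036, so Gys2 had no direction that held across the scalings.

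Pygl is the liver form of glycogen phosphorylase, the enzyme that releases glucose-1-phosphate from the chain. Its only probe set, 1417741_at, read 2227 (congenic) against 2556 (control), lower by 12.9% (log2 difference -0.20). Of all expressed genes, 51.8% lay at least as far from 0, so the value is near the middle of the array. The differences of the synthase and the phosphorylase were 0.23 apart on the log2 scale, with Gys2 the higher.

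**Figure D2:**
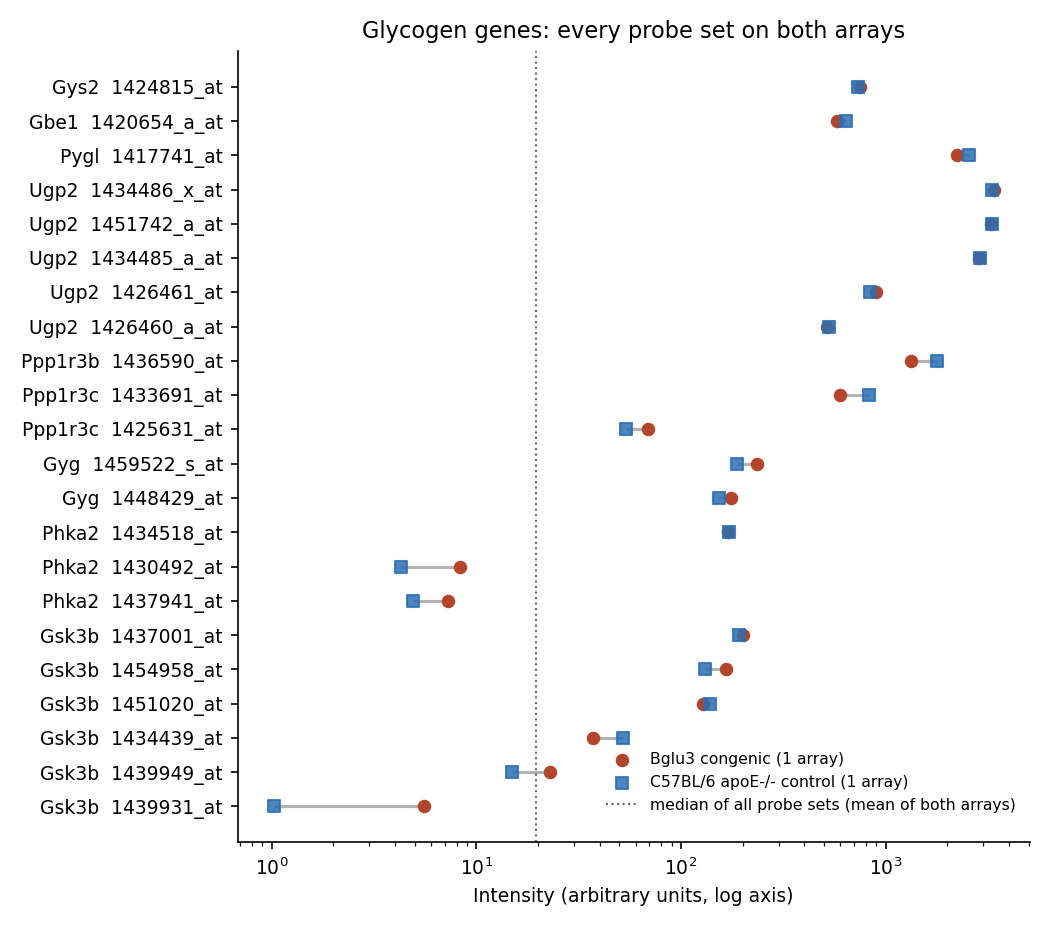
Intensity (x axis, arbitrary units, log axis) of each of the 22 probe sets of the 9 glycogen genes from congenic (red circles) and control mice (blue squares), with a dotted line at the median of all probe sets. In most rows the symbols overlap or nearly touch, the gap is widest in the 4 rows at or below the dotted line, and positions should not be compared between rows because probe sets differ in brightness for the same amount of RNA.

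Of the targeting subunits of protein phosphatase 1, Ppp1r3b was lower in the congenic array and Ppp1r3c had probe sets of both signs. Ppp1r3b encodes GL, the subunit that is abundant in liver and ties the phosphatase to glycogen and to phosphorylase. Its only probe set, 1436590_at, read 1323 (congenic) against 1789.7 (control; log2 difference -0.43, or 1.35-fold lower). The gene has no other probe set here to set beside this value, and 21.6% of expressed genes differed by at least as much.

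Ppp1r3c encodes PTG, another scaffold that gathers the phosphatase and its substrates at glycogen, and its probe sets did not point the same way. The brightest, 1433691_at, read 598 (congenic) against 830.4 (control; log2 difference -0.47, or 1.39-fold lower). The dimmer 1425631_at read 68.7 against 53.8 (log2 difference 0.33). The probe sets of Ppp1r3c were thus 0.80 apart, and their median was -0.07. Among 5189 genes with at least 2 expressed probe sets the median range was 0.31, and in 47.6% of them the probe sets had both signs. The sources used here do not say which transcript parts the probe sets of Ppp1r3c read, so neither sign can be preferred, and the similar values of Ppp1r3b and of 1 probe set of Ppp1r3c rest on 1 probe set each.

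The kinases that act on the pathway completed the group. Phka2 is the liver form of the alpha subunit of phosphorylase kinase, a regulatory subunit encoded on the X chromosome. Its bright probe set, 1434518_at, read 170.3 (congenic) against 172 (control; log2 difference -0.01). The other probe sets of Phka2 were below the array median on both arrays, with 1430492_at at 8.3 against 4.27 (0.52) and 1437941_at at 7.26 against 4.88 (0.31). Differences between such dim values depend on the pseudocount: the first of them was 0.22 with a pseudocount of 20 and 0.96 with none.

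Gsk3b is the beta form of glycogen synthase kinase 3, which phosphorylates and restrains the synthase, and it had 6 probe sets, 5 of them expressed. The brightest, 1437001_at, read 201 (congenic) against 191 (control; log2 difference 0.07). Probe set 1454958_at read 165 against 131 (0.32) and 1451020_at 128 against 138 (-0.11). The 3 brightest probe sets of Gsk3b therefore did not share a sign. Probe set 1434439_at read 37.1 against 52.0 (-0.44), and 1439949_at read 22.9 against 14.9 (0.49), where the control value was below the array median. The dimmest, 1439931_at, was not expressed on either array and read 5.54 against 1.02 (0.81), the only one of the 22 probe sets past 1.5-fold. Over its 5 expressed probe sets Gsk3b ranged over 0.92 on the log2 scale, with 3 higher and 2 lower.

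**Figure D3:**
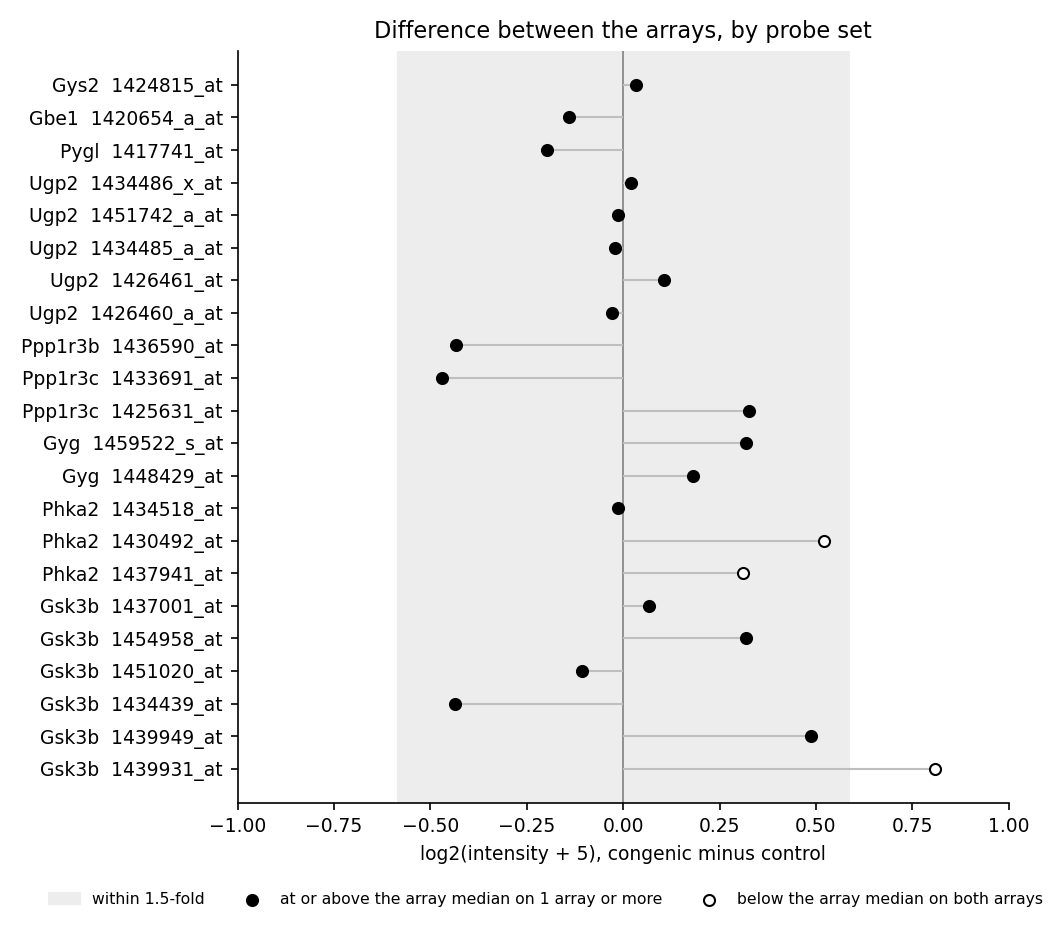
Difference between the arrays (x axis, log2 of intensity + 5, congenic minus control) for each of the 22 probe sets, with filled circles for the 19 expressed and open circles for the 3 below the array median on both arrays. The shaded band marks differences under 1.5-fold, and 1 open circle, Gsk3b 1439931_at at 0.81, lies outside it.

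Of the 4 members with at least 2 expressed probe sets, Ugp2, Ppp1r3c, Gyg and Gsk3b, all but Gyg had probe sets of both signs. The pooled SD between expressed probe sets of a gene was 0.29 on the log2 scale in these 4 and 0.34 over 5189 genes. The probe sets of a gene read the same 2 RNA samples and may read different transcripts of it, so this spread is no measure of the variation between mice.

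Across other ways of scaling and other pseudocounts, 14 of the 19 expressed probe sets kept 1 sign, 8 of them higher and 6 lower in the congenic array. The 5 whose sign turned were those of Gys2, Phka2 and 3 of Ugp2, all with differences under 0.04 in size. Ppp1r3b stayed between -0.45 and -0.40 and the brightest probe set of Ppp1r3c between -0.50 and -0.44. Gyg 1459522_s_at stayed between 0.26 and 0.35. These settings re-express the same 2 arrays and say nothing about other animals.

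**Figure D4:**
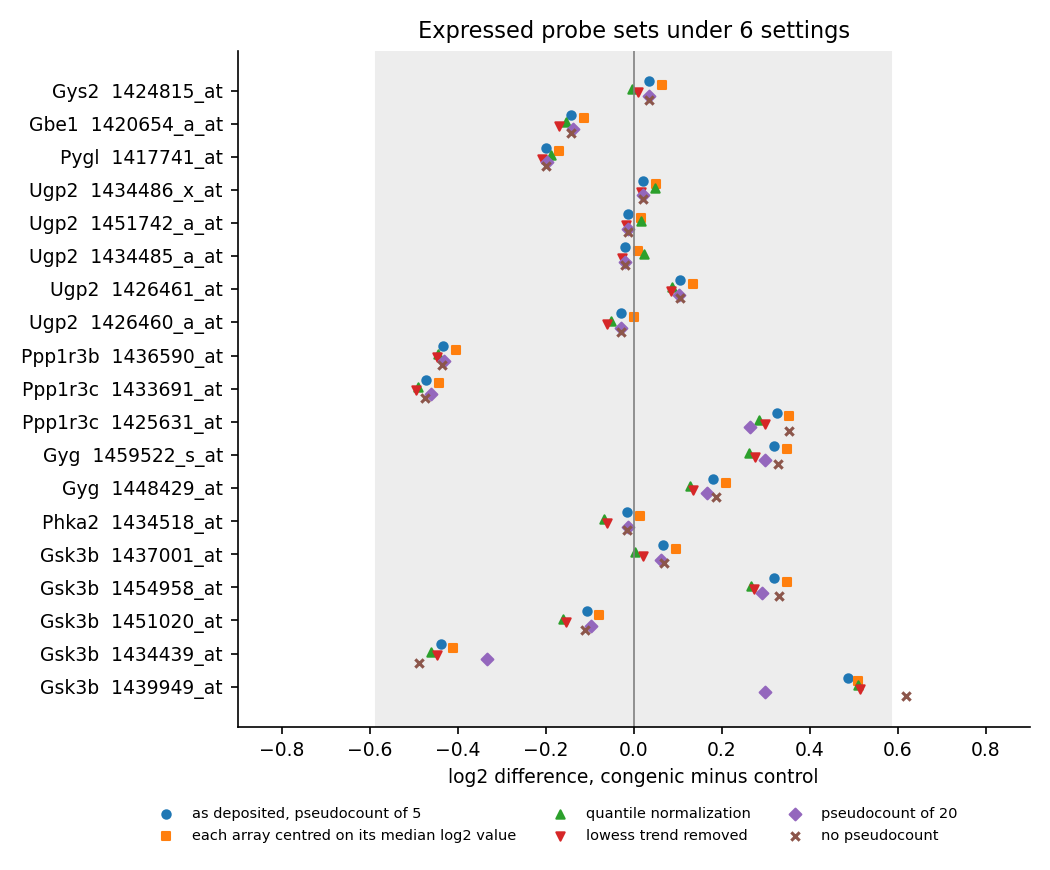
Difference between the arrays (x axis, log2, congenic minus control) for the 19 expressed probe sets under 6 settings, each with its own symbol. The symbols of a row lie close together except in the dim Gsk3b probe sets 1434439_at and 1439949_at, and the second passes the shaded 1.5-fold band with no pseudocount, at 0.62.

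The genes of the members lie on 8 chromosomes, and 0 of the 9 lie on chromosome 1, per the gene table of assembly GRCm38.p6. RefSeq promoter windows, from 250 bases before to 50 after the annotated start, were at hand for 7 of the genes (8 windows) and not used here for Gys2 and Ppp1r3b. The E-box CACGTG, the sequence bound by the clock factors CLOCK and BMAL1 and by other factors of their class, was searched because clock genes differed between the arrays. It reads the same on both strands and was found in 2 of the 8 windows, those of Ppp1r3c and Gyg, and in 7.15% of all 32851 windows. The bases before the starts of these genes are shown, 5′ to 3′ on the minus strand that both genes use, with any E-box in capitals. A link between the E-box and the differences of the members was not tested. The Ppp1r3c stretch is chr19:36736605-36736854 and that of Gyg is chr3:20155117-20155366 (GRCm38.p6).
Ppp1r3c: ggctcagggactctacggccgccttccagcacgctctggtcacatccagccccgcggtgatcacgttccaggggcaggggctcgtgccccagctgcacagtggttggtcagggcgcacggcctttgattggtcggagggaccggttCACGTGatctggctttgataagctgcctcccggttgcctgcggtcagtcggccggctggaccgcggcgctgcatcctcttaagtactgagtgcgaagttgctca
Gyg: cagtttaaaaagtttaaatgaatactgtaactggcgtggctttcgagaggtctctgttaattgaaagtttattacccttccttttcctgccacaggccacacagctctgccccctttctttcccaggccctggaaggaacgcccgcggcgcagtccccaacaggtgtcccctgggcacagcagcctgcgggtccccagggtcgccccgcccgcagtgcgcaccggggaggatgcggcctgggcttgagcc

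In Ppp1r3c the E-box begins 104 bases before the start, while in Gyg it begins at base 9 after the start and so lies outside the stretch shown. The cAMP response element TGACGTCA was in 0 of the 8 member windows and in 1.79% of all windows. The GC box GGGCGG, searched on both strands, was in 6 of the 8 and in 35.7% of all windows. The E-box and the cAMP response element share the core ACGT, which the GC box lacks. A match describes the reference sequence and is no evidence of binding, and the array carries no measure of it.

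Further genes of glycogen metabolism were described by their brightest probe sets in the same way. Of 24 listed enzymes and regulators, 23 had a probe set with a single symbol, 18 were expressed, and 0 of the 18 passed 1.5-fold, with 9 higher, 9 lower and a median of -0.03. Beside the 12.9% of all expressed genes past 1.5-fold, this count is too small to be read as a result about the list. Other expressed probe sets did pass it in Ppp1r3e, a targeting subunit, at 0.89 beside 0.22 for its brightest, and in Phka1. The highest were Pygb, the brain form of phosphorylase, at 81.2 against 56.5 (log2 difference 0.49), and Ppp1cc, a catalytic subunit of protein phosphatase 1 (0.23). The lowest were Ppp1r3d, another targeting subunit, at 13.4 against 19.8 (-0.43), and Epm2a, which encodes laforin, a phosphatase of glycogen (-0.41). Ppp1r3d was dim, and its congenic value lay below the array median.

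Other subunits, forms and neighbours of the members were also measured. Phkb, the beta subunit of phosphorylase kinase, read 128 in both arrays (log2 difference 0.0040). Phkg2, its liver catalytic subunit, differed by 0.05 (187 against 179.5). Gsk3a, the alpha form of glycogen synthase kinase 3, differed by 0.22 (594 against 510.01). Phosphoglucomutase, which links glucose-6-phosphate to the precursor branch, was represented by Pgm1 at 798 against 1036 (-0.37).

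Of the forms typical of muscle, the synthase and the phosphorylase were dim in both arrays. Gys1, muscle glycogen synthase, read 13.1 against 13.7, and Pygm, muscle phosphorylase, read 1.21 against 1, all of them below the array medians of 19.3 and 19.7. Phka1, the muscle alpha subunit of phosphorylase kinase, was above the array median on both, at 32.9 against 31.2 (0.07), with probe sets from -1.12 to 0.80. Skeletal muscle markers summed to 147 (congenic) against 195 (control), and 5 of their 8 genes, Myh4 and Ckm among them, were below the array median on both. The 3 expressed markers were lower in the congenic array, and 1 passed 1.5-fold, Atp2a1 at 7.97 against 22.3 (-1.07). Mylpf and Atp2a1 counted as expressed only through the control array. Beside the 12.9% of all expressed genes past 1.5-fold, this count is too small to be read as a result about the list.

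Upstream of the kinases and phosphatases, 2 of 16 expressed genes of the insulin, glucagon and adrenergic relay passed 1.5-fold by brightest probe set. That share is near the 12.9% of all expressed genes. The brightest probe set of the insulin receptor gene Insr was at 0.23, while another expressed one was at -0.99, past 1.5-fold. Irs1, an adaptor of the insulin receptor whose gene is on chromosome 1, read 488 against 210.01 (log2 difference 1.20), and Irs2, a related adaptor, differed by 0.35. Pik3r1, the regulatory subunit of phosphoinositide 3-kinase, read 234 against 771 (-1.70) by its brightest probe set. The 4 expressed probe sets of Pik3r1 ranged from that value to -0.47, which is within 1.5-fold. Adra1b, an adrenergic receptor, differed by -0.34. The median of the 16 was 0.0050. Akt2, the kinase that phosphorylates and inactivates Gsk3b in insulin action, stood at 0.02 by its brightest probe set. The 3 expressed probe sets of Akt2 ranged from -0.21 to 0.39. The glucagon receptor gene Gcgr stood at -0.03.

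Glucose-6-phosphate is the point at which glycogen meets glucose release, and G6pc, the glucose-6-phosphatase of liver, read 2923 (congenic) against 1321 (control; log2 difference 1.14). Slc37a4, which carries glucose-6-phosphate to that enzyme, differed by -0.45, and G6pc3, a relative expressed in many tissues, by -0.78 at a dim 12.4 against 24.9. The glucose transporter gene Slc2a2 differed by -0.30, and Gckr by 0.23. Of these 5 genes, 1 was higher and 1 lower by 1.5-fold or more. Beside the 12.9% of all expressed genes, this count is too small to be read as a result about the list. With a pseudocount of 20, the dim G6pc3 was at -0.47, within 1.5-fold. The congenic value of G6pc3 lay below the array median, so it counted as expressed only through the control array. G6pc lay far outside the range of the 9 glycogen genes, from -0.47 to 0.32.

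Single genes that respond to feeding state, and several clock genes, differed between the arrays. Of 8 genes responsive to insulin or fasting, G6pc and Fgf21, a fasting hormone (0.87), were higher by 1.5-fold or more. Beside the 12.9% of all expressed genes, that is too few to be read as a result about the list. Igfbp1, which insulin lowers, differed by -0.49 and Srebf1, which insulin raises, by -0.47. The median of the 8 was 0.03, with 4 higher and 4 lower, and Pck1, a gluconeogenic enzyme gene, differed by -0.02. Of 14 clock genes, 2 were higher and 4 lower by 1.5-fold or more, where 12.9% of all expressed genes passed it either way. By brightest probe set, Arntl, which encodes BMAL1, was at 1.14, Npas2 at 0.81, Ciart at -1.29, Per2 at -1.28, Dbp at -0.76 and Tef at -0.75. Another expressed probe set of Tef was at 0.03 and another of Dbp at -0.56, both within 1.5-fold. Npas2 was dim, with a control value of 19.55 below the array median, and was at 0.55 with a pseudocount of 20. Npas2 and Per2 are among the 5 of 101 genes in the lists other than the members that lie on chromosome 1. The others are Irs1, at 1.20, the macrophage marker Marco, at 1.85, and the hepatocyte marker Cps1, at 0.03. A link to the Bglu3 locus was not tested. Several glycogen genes are known to follow the clock and feeding in mouse liver, and the part of the hour of sampling or of food intake in the values of Ppp1r3b and Ppp1r3c was not tested.

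**Figure D5:**
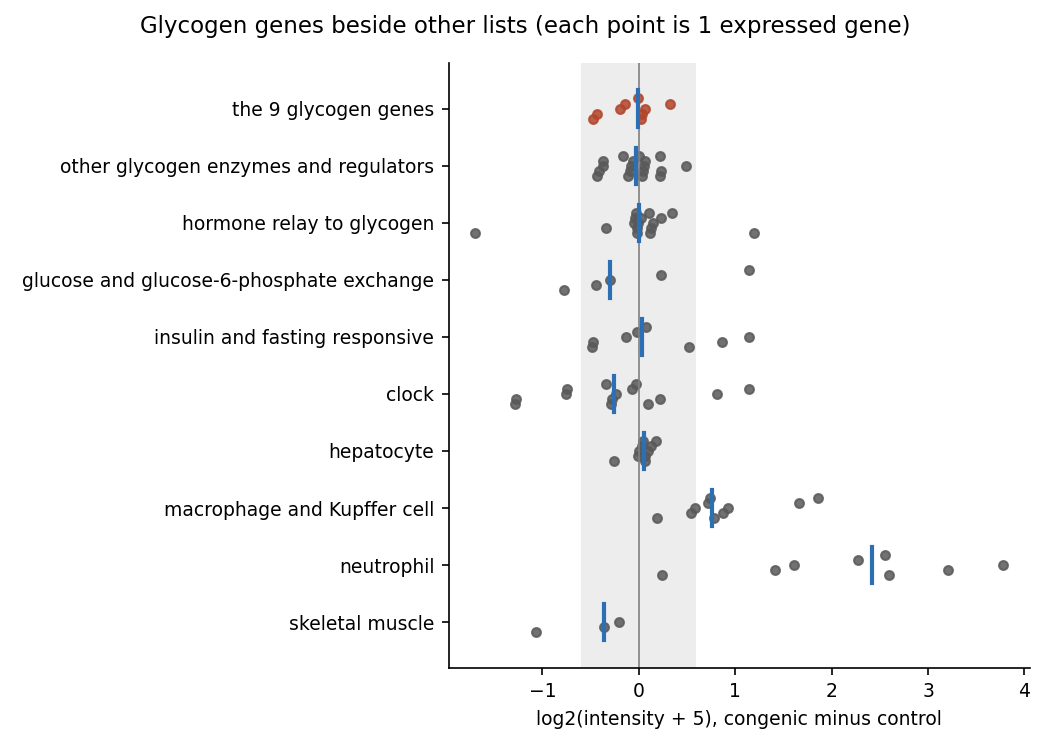
Difference between the arrays (x axis, log2 of intensity + 5, congenic minus control) for expressed genes of 10 lists, 1 point per gene, with the 9 glycogen genes in red, a blue bar at each list's median and a shaded band within 1.5-fold. The glycogen genes and the 18 further glycogen genes lie within the band, while the neutrophil list reaches 3.78 and has a median of 2.41. That median was 1.51 when a gene had to reach the array median on both arrays. With a pseudocount of 20 it was 1.69, and the highest gene, Camp, was at 2.70.

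The arrays carried the markers of liver tissue. By brightest probe set, all 10 hepatocyte markers were expressed and within 1.5-fold, with summed intensities of 108987 (congenic) and 104457 (control) and a median of 0.05. The 4 expressed probe sets of 1 of them, Hnf4a, ranged from -0.59, just past 1.5-fold, to -0.26. Albumin (Alb) read 14121 against 12909.6. Markers of macrophages and Kupffer cells summed to 27022 against 17349.7, with 7 of 10 higher by 1.5-fold or more, among them Timd4 of resident Kupffer cells at 506 against 157. Markers of neutrophils summed to 4157 against 1266, with 7 of 8 higher by that much, among them S100a8, a calcium-binding protein of neutrophils, at 1769 against 577. None of either list was lower by 1.5-fold, and 12.9% of all expressed genes passed it either way. All genes of both lists were expressed on at least 1 array. The neutrophil genes Camp, Prtn3, Mpo and Ltf lay below the array median in the control, so they counted as expressed only through the congenic array. The part of these cells in the differences of the glycogen genes was not tested.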

How the data were processed

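Each array measured liver RNA of 1 group, with 8 µg of total RNA as input for the biotinylated cRNA, per the labels' protocols. The deposited table holds a linear intensity per probe set and array; the sources used here do not say how the authors summarized probes or scaled arrays. The array medians were 19.3 (congenic) and 19.7 (control), 0.03 apart on the log2 scale, and intensities were used as deposited. The number of arrays limits the precision: with 1 per group there is no error and no test.

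The 64 control probe sets entered no gene count. Genes were named from the platform annotation where a probe set had a single symbol. Differences are log2(intensity + 5), congenic minus control. All 9 member symbols matched RefSeq by gene ID, and 7 of 117 listed genes had no single-symbol probe set here. Members and lists were chosen with earlier results of these data known. All members are named with every probe set. Of the lists that are not of cell types, the 2 highest, 2 lowest and those past 1.5-fold are named, plus isoforms and partners of members. For the cell type lists, whole-list sums and only some genes are given, so not every gene past 1.5-fold there is named. As an exception, Pgm1, Ppp1r3e, Slc2a2, Akt2, Gcgr, Pck1, Insr, Marco, Hnf4a, Mylpf and Atp2a1 were chosen after their values were seen. Alternatives were 3 scalings (median centring, quantile, lowess with a span of 0.3), pseudocounts of 20 and none, 3 expression filters and 2 rules for genes with several probe sets. Promoter sequences are from RefSeq, GRCm38.p6. Python 3.11.15 with pandas 2.3.3, numpy 2.4.6 and statsmodels 0.14.6 was used, and the functions were tested on simulated data.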

Additional observations from a re-analysis of the deposited data

How the results depend on the processing

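With 1 array per group, these alternatives show what the processing does to 2 arrays and not how stable a value is between mice. The count of member genes past 1.5-fold was 0 under all 10 alternatives. The count of expressed member probe sets past 1.5-fold was 0 and became 1 with no pseudocount (Gsk3b 1439949_at, at 0.62) and 1 with no filter on low values (Gsk3b 1439931_at); further glycogen genes went from 0 to 2 with no filter (the dim Phkg1 and Ppp1r3a). The medians of both groups of genes moved by less than 0.1 under all 10 alternatives. The gene value of Ppp1r3c moved from -0.47 to -0.07 with the median over its expressed probe sets. Of 706 values of single probe sets, genes and lists under an alternative, 680 moved by less than the limit used (0.34, the SD between probe sets of a gene, for single values and 0.1 for list medians), 26 moved by more, and no value past 1.5-fold changed sign. The limit of 0.34 is larger than the difference of every member gene except Ppp1r3b and Ppp1r3c. Those other member genes could lose their whole difference within it, so the 680 says little about them. Dim probe sets limit what can be said: with no pseudocount Gsk3b 1439931_at differed by 2.44 and with a pseudocount of 20 by 0.28. No paired analysis was possible because each group has 1 array.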
